A study of Mus musculus with 9 samples.

Results

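The genes described here copy DNA or supply its building blocks. They comprise 40 members chosen by name, from the origin recognition complex and the MCM helicase to the replicative polymerases, the sliding clamp PCNA, ribonucleotide reductase and the E2F transcription factors. Of these, 39 had a probe set with their symbol alone on the array, out of 18193 genes that did. Chaf1a, the large subunit of chromatin assembly factor 1, had none and is not analysed here. Where a gene had several probe sets, the probe set with the highest mean over the 9 arrays stood for it, and a probe set prone to cross-hybridisation (_x_at) was used only where there was no other.

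DNA replication begins in G1 phase, when ORC, CDC6 and CDT1 load the ring-shaped MCM helicase onto origins. In S phase CDC45 and the GINS complex activate the helicase, DNA polymerase alpha with its primase starts each new strand, and polymerases delta and epsilon, held by PCNA, extend it. Ribonucleotide reductase, thymidylate synthase and thymidine kinase supply deoxynucleotides, and many of these genes are transcribed under E2F factors once the retinoblastoma proteins release them. Activated T cells divide fast, so this machinery is strongly expressed in stimulated T cell cultures.

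RNA was hybridised to Affymetrix Mouse Genome 430 2.0 arrays, 3 in each of 3 groups that the design text calls biological replicates. The cells came from Foxp3EGFP reporter mice on a C57BL/6 (B6) background; the labels used here give no age or sex. For the induced regulatory T cells (iTreg), spleen CD4+ cells lacking the EGFP reporter of Foxp3 were sorted and stimulated for 72 hours. The wells were coated with 2.5 µg/ml of anti-CD3, and the medium held 1 µg/ml of anti-CD28 and 100 U/ml of IL2. The purTGFβ_iTreg group received purified TGFβ1 at 5 ng/ml, and the pltTGFβ_iTreg group received freeze-thaw lysates of platelets from wild-type C57BL/6 mice, whose TGFβ1 was measured by ELISA but is not stated. Tconv are conventional T cells, the comparison group. How they were kept is unsettled, because a treatment note attached to all samples has Tconv cells receiving TGFβ1, and no label says whether iTreg were sorted for the reporter before RNA extraction.

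Before the results, the arrays differed between groups in ways that touch every comparison with Tconv. Xist, the RNA of the inactive X chromosome, read 10.81 ± 0.16 (SD, n = 3) in Tconv and 3.61 ± 0.21 and 3.94 ± 0.05 in the purified-TGFβ and platelet-lysate iTreg, while Y-linked Eif2s3y read 2.70 ± 0.11, 9.01 ± 0.18 and 8.95 ± 0.07. The sex of the animals and the culture group therefore cannot be told apart in the Tconv comparisons. The CD4 T cell markers were present on every array: 7 measured markers averaged 10.3 to 10.6. Of these, Cd4 and Cd5 were called lower than Tconv in both iTreg groups, and Cd28 and Cd2 were called higher with lysate. Myeloid, NK and erythroid lists averaged 3.06 to 4.18, below the array medians of 4.46 to 4.56. The 6 B cell markers averaged 4.59 to 4.67 in Tconv, 4.11 to 4.32 with purified TGFβ and 4.09 to 4.28 with lysate. Of them Cd79b alone was called, at 6.02 in Tconv against 4.56 and 4.37 in iTreg. Foxp3, the defining factor of regulatory T cells, has 1 named probe set, which read 3.79 ± 0.12, 3.77 ± 0.08 and 3.86 ± 0.04 in Tconv, purified-TGFβ and lysate iTreg, below the array medians in all groups; the iTreg label is therefore not borne out by it. Other markers of induced regulatory cells, looked up after seeing the data, were higher in iTreg: the IL2 receptor chain Il2ra (8.69 ± 0.07, 10.37 ± 0.05 and 10.42 ± 0.10) and the inhibitory receptor Ctla4 (8.03 ± 0.17, 9.89 ± 0.11 and 10.40 ± 0.04). The integrin Itgae read 4.53 ± 0.10, 6.00 ± 0.05 and 4.82 ± 0.12. It was called higher than Tconv with purified TGFβ, and with lysate its log2 difference of 0.29 lay within the fold cutoff. Both iTreg groups were stimulated with anti-CD3, anti-CD28 and IL2, and the part of that stimulation in these levels was not tested. Platelet markers averaged 5.08 to 5.17 in Tconv, 4.22 to 4.38 with purified TGFβ and 4.59 to 4.72 with lysate. Among them the integrin Itgb3 differed most (7.29, 4.28 and 6.03) and was called in every comparison. Itga2b (6.75, 6.11 and 6.14) was called lower in both iTreg groups than in Tconv. Gp1bb read 5.33, 4.88 and 4.94, Gp9 5.26, 4.93 and 4.89, Pf4 3.32, 3.05 and 3.30 and Ppbp 2.76, 2.46 and 2.70, none of them called. The CD8 markers Cd8a and Cd8b1 averaged up to 5.71 in Tconv and 5.16 in iTreg. Cd8b1 was called lower in both iTreg groups (6.75, 5.78 and 5.71), and Cd8a was not called (4.51, 4.46 and 4.31). The part of all these markers in the results was not tested. On arrays of bulk RNA, fewer cells in S phase and less transcript per cell cannot be told apart.

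E2F factors bind TTT-rich GC octamers in the promoters of S phase genes, so the members' promoters are shown before their values. RefSeq (GRCm38.p6) promoter windows, 250 bases before to 50 after an annotated start, were at hand for 34 of the 40 members, Chaf1a included, and not for Mcm4, Gins1, Gins2, Prim2, Pole and Rfc2. An E2F-like octamer (TTTCCCGC, TTTGGCGC, TTTGCCGC or TTTCGCGC, on either strand) was found for 13 of them (38.2%), against 2.60% of all 27025 genes with a window. A CCAAT box, the site of the factor NF-Y, on either strand was found for 21 (61.8%) against 41.1%. The 150 bases upstream of the start are shown for some of the members that rose (Pola1, Dtl, Slbp, Rrm2) and for those that differed between the iTreg groups (Orc1, Mcm6). They run 5′ to 3′ along the gene, with E2F-like octamers and CCAAT boxes in capitals.
Pola1: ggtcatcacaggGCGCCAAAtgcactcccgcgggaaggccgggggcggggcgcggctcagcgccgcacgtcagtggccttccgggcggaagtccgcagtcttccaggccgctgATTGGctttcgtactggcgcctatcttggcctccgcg
Dtl: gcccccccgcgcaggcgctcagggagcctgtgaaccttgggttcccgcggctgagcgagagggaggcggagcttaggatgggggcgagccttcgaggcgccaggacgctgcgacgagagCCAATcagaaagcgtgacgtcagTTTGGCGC
Slbp: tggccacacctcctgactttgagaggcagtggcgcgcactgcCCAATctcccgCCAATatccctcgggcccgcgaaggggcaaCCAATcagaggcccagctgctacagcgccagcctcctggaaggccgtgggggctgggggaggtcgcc
Rrm2: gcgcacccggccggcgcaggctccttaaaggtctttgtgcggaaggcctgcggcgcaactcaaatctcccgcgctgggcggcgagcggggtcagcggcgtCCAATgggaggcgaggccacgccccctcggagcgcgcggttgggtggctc
Orc1: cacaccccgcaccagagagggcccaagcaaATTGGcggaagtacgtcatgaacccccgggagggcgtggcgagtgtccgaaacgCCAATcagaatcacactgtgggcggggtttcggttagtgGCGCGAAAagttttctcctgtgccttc
Mcm6: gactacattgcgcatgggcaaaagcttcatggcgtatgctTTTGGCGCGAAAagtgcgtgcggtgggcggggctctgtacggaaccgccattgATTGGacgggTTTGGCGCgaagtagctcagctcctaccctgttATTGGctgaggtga
They lie at chrX:93632156-93632305 (minus strand), chr1:191575545-191575694 (minus strand), chr5:33652575-33652724 (minus strand), chr12:24708104-24708253 (plus strand), chr4:108579304-108579453 (plus strand) and chr1:128359706-128359855 (minus strand). For Orc1 and Pola1 the start is that of a transcript inside the RefSeq gene, which runs from 108575705 to 108616030 and from 93304766 to 93632387, so their printed bases lie within the annotated gene. The Dtl octamer abuts the start, the Orc1 octamer begins 27 bases before it and the Pola1 octamer 138 bases before it. Mcm6 has 3 octamers, of which those 110 and 106 bases before the start overlap on opposite strands and another lies 47 bases before it. Slbp has 3 CCAAT boxes and no octamer here. Tyms, which also rose and is not shown, had no octamer and no CCAAT box in its window. Octamers occurred in members that were higher (Dtl, Pola1), in members that were lower (Orc1, Pold1) and in 9 of the 24 with a window that were not called. A match is a string of letters and does not show binding.

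Against Tconv, the replication genes did not move as a block in either iTreg group: a few rose, fewer fell and most differed by less than the cutoff. A call needed a log2 difference past ±0.5 (about 1.4-fold) together with a Benjamini-Hochberg adjusted p below 0.1 from limma on the RMA log2 values, which are the cutoffs of the design text. With purified TGFβ, 6 of 39 members rose (Dtl, Mcm4, Pola1, Slbp, Rrm2 and Tyms) and 3 fell (Orc1, Pold1 and Tk1). That is 15.4% and 7.69% of members, where 14.5% and 14.9% of all genes were called, 29.3% in all. With platelet lysate 7 rose, the same 6 and Pcna, and 3 fell (Pold1, Tk1 and Pole), or 17.9% and 7.69% of members against 13.9% and 14.7% of all genes, 28.5% in all. The share that rose was near the background in both comparisons, and the share that fell was below it. The members were brighter than most genes, with a median level of 10.09 beside 5.36 over all genes. Here and below, the background was not matched for level. Both comparisons share the Tconv arrays, so their likeness is not independent evidence.

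By adjusted p alone, 30 members differed from Tconv with purified TGFβ, 14 higher and 16 lower, where 20.8% of all genes were higher and 42.6% lower (63.4% in all). For the members these shares were 35.9% and 41.0%. With platelet lysate 12 were higher (30.8%) and 19 lower (48.7%), against 20.2% and 40.3% (60.4% in all). With purified TGFβ the arrays of 14 members lay wholly above Tconv and those of 18 wholly below, against 21.1% and 41.6% of all genes (62.7% without overlap). With lysate these counts were 13 and 18, against 20.7% and 38.4% (59.0%). The median log2 difference over members was -0.10 and -0.13, beside -0.17 and -0.16 over all genes. Quantile normalization left the rises at 6 and 7 but raised the falls to 6 and 6, and turned the members' median from above that of all genes (by 0.07 and 0.03) to -0.05 and -0.08 relative to it. Over all genes it moved the share of calls that were rises from 49.3% and 48.5% to 38.6% and 38.4%.

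**Figure D1:**
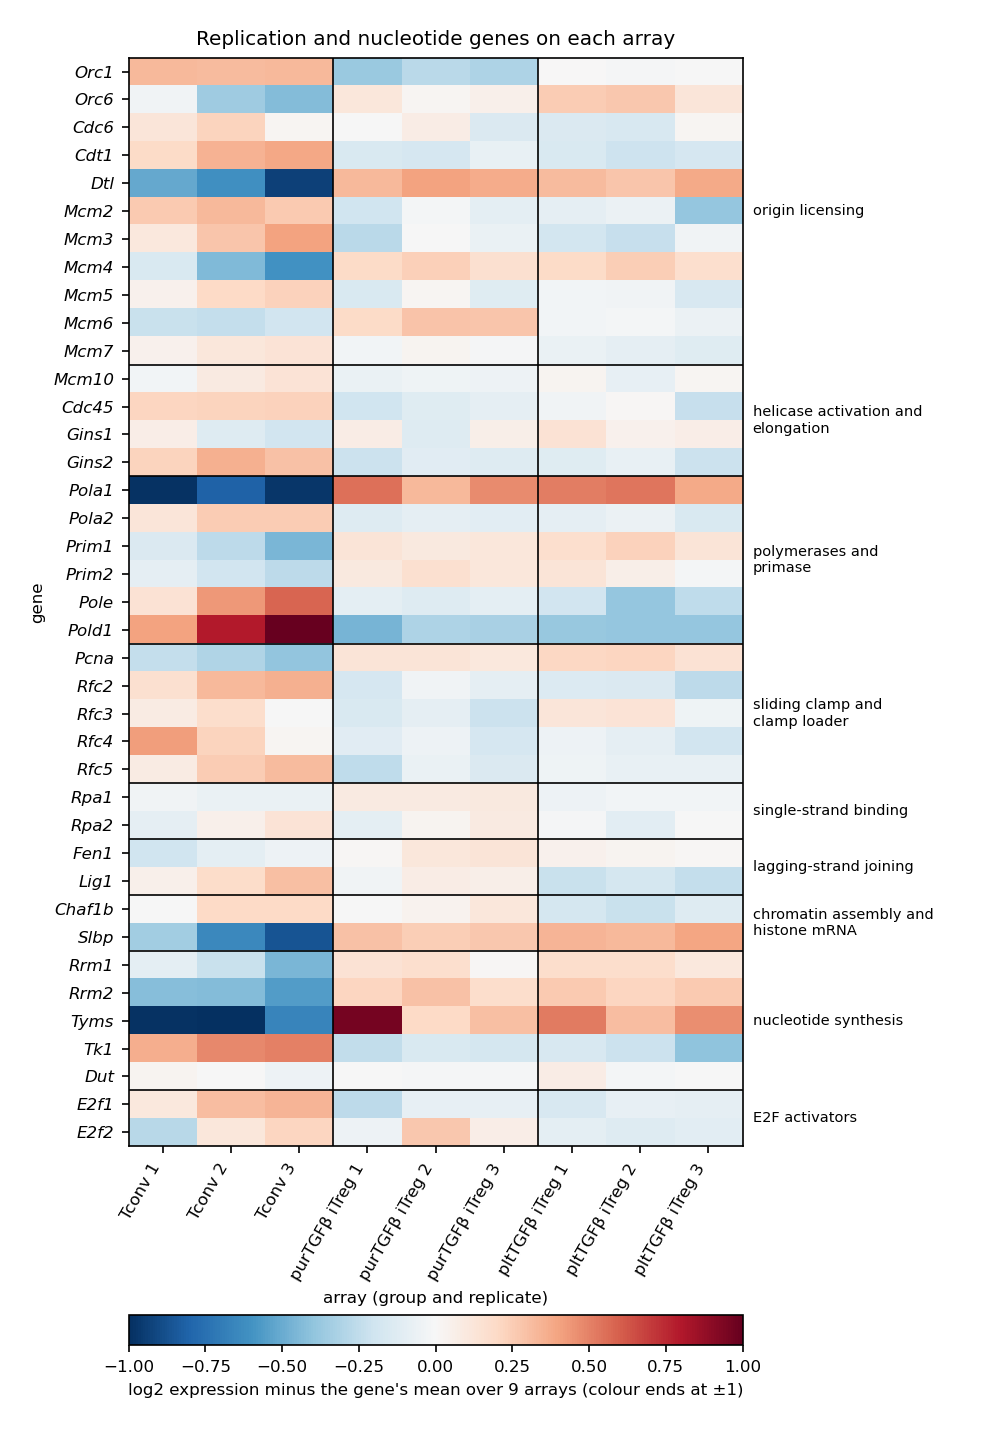
RMA log2 expression of each measured member (rows, grouped by role) on each of the 9 arrays (columns), as the difference from that gene's mean over the arrays, blue lower and red higher, with the colour scale ending at ±1. Pola1, Dtl, Slbp, Rrm2 and Tyms are blue in Tconv and red in both iTreg groups, Pold1 and Tk1 the reverse, and most other rows are pale.

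Among the genes that license origins or limit licensing, Dtl and Mcm4 rose in both comparisons, and Orc1 fell with purified TGFβ. Dtl encodes the adaptor that directs CDT1 to destruction in S phase, which prevents a second round of licensing. Its probe set read 8.35, 8.25 and 7.92 on the Tconv arrays, 9.18, 9.26 and 9.23 with purified TGFβ and 9.17, 9.14 and 9.23 with platelet lysate. Every iTreg array lay above every Tconv array, and Dtl rose 2.07-fold with purified TGFβ (log2 difference 1.05 ± 0.11, SE, adjusted p = 6.92e-06) and 2.01-fold with lysate (adjusted p = 1.06e-05). Cdt1, the loader that DTL removes, had log2 differences of -0.44 and -0.49, lower at adjusted p = 0.000794 and 0.000400 but within the fold cutoff. Cdc6, which loads the helicase with CDT1, had -0.15 and -0.22 (adjusted p = 0.212 and 0.0776), lower with lysate by adjusted p alone. Its arrays overlapped between Tconv and purified TGFβ. With lysate the highest array equalled the lowest Tconv array (9.80).

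The MCM helicase is a ring of 6 different subunits, MCM2 to MCM7, and its transcripts did not shift together. Mcm4 read 11.13, 10.84 and 10.68 on the Tconv arrays, 11.48, 11.52 and 11.45 with purified TGFβ and 11.47, 11.53 and 11.45 with platelet lysate. The Tconv arrays were lowest and did not overlap the others, and Mcm4 rose 1.52-fold in both comparisons (log2 differences 0.60 and 0.60, adjusted p = 0.000705 and 0.000716). Without Tconv replicate 3 these differences were 0.497 and 0.498, just within the cutoff. Mcm2, Mcm3 and Mcm5 had negative differences of -0.39 and -0.46, -0.38 and -0.41 and -0.24 and -0.23, with adjusted p between 0.00254 and 0.0464, none past the fold cutoff. For Mcm7 the values were -0.10 and -0.19 (adjusted p = 0.251 and 0.0482). Of the origin recognition complex, Orc6 had 0.34 and 0.49, higher by adjusted p alone, whereas Orc1, its large ATP-binding subunit, read 8.64, 8.63 and 8.64 on the Tconv arrays, 7.95, 8.05 and 8.01 with purified TGFβ and 8.32, 8.30 and 8.32 with platelet lysate. All iTreg arrays were below Tconv, and Orc1 fell by 0.64 on the log2 scale with purified TGFβ (adjusted p = 1.65e-05). With lysate the difference was -0.33 (adjusted p = 0.00279), within the cutoff. Taking the mean of the probe sets, the Orc1 difference with purified TGFβ was -0.42 and no longer called.

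None of the genes that turn the loaded helicase into a moving fork was called in any comparison. Cdc45, which with GINS completes the active helicase, had differences of -0.36 and -0.31 from Tconv, and Gins2 had -0.44 and -0.43, both lower by adjusted p alone. Gins1 and Mcm10, a factor needed for helicase activation, had 0.09 and 0.17 and -0.12 and -0.08, with adjusted p from 0.162 to 0.463.

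The polymerase genes held a rise and a fall of more than 2-fold, Pola1 up and Pold1 down. Pola1 encodes the catalytic subunit of DNA polymerase alpha, the enzyme that starts each new strand. It read 7.92, 8.10 and 7.94 on the Tconv arrays, 9.46, 9.23 and 9.38 with purified TGFβ and 9.42, 9.44 and 9.28 with platelet lysate. The groups were far apart, with the lowest iTreg array above the highest Tconv array by more than a log2 unit, and Pola1 rose 2.59-fold and 2.64-fold (log2 differences 1.37 ± 0.09 and 1.40 ± 0.09, SE, adjusted p = 2.47e-07 and 2.53e-07). With the mean of its probe sets the differences were 0.72 and 0.74, still called. Pola1 lies on the X chromosome, and the sex difference between Tconv and iTreg arrays cannot be told apart from the group. Its accessory subunit Pola2 had -0.32 and -0.31, and the primase subunits Prim1 and Prim2, partners of the same enzyme, had 0.40 and 0.47 and 0.30 and 0.24. These passed the adjusted p but not the fold cutoff, Pola2 lower and the primase genes higher.

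Pold1, the catalytic subunit of polymerase delta, which extends the lagging strand, went the other way. It read 9.24, 9.63 and 9.89 on the Tconv arrays, 8.38, 8.53 and 8.52 with purified TGFβ and 8.46, 8.45 and 8.46 with platelet lysate. The Tconv arrays were highest and also the most scattered, and no iTreg array reached them. Pold1 fell by 1.11 ± 0.14 (SE, adjusted p = 3.54e-05) with purified TGFβ and by 1.13 ± 0.14 (adjusted p = 3.32e-05) with lysate on the log2 scale. Pole, the catalytic subunit of polymerase epsilon on the leading strand, read 8.77, 9.06 and 9.21 on the Tconv arrays, 8.53, 8.50 and 8.53 with purified TGFβ and 8.43, 8.24 and 8.37 with platelet lysate. Its arrays did not overlap Tconv either; the fall of 0.67 with lysate was called (adjusted p = 0.000365), and the difference of -0.496 with purified TGFβ lay just within the cutoff (adjusted p = 0.00284). Without Tconv replicate 1 the latter was -0.62 and was called, as it was without purified-TGFβ replicate 1 or 3 and under quantile normalization.

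**Figure D2:**
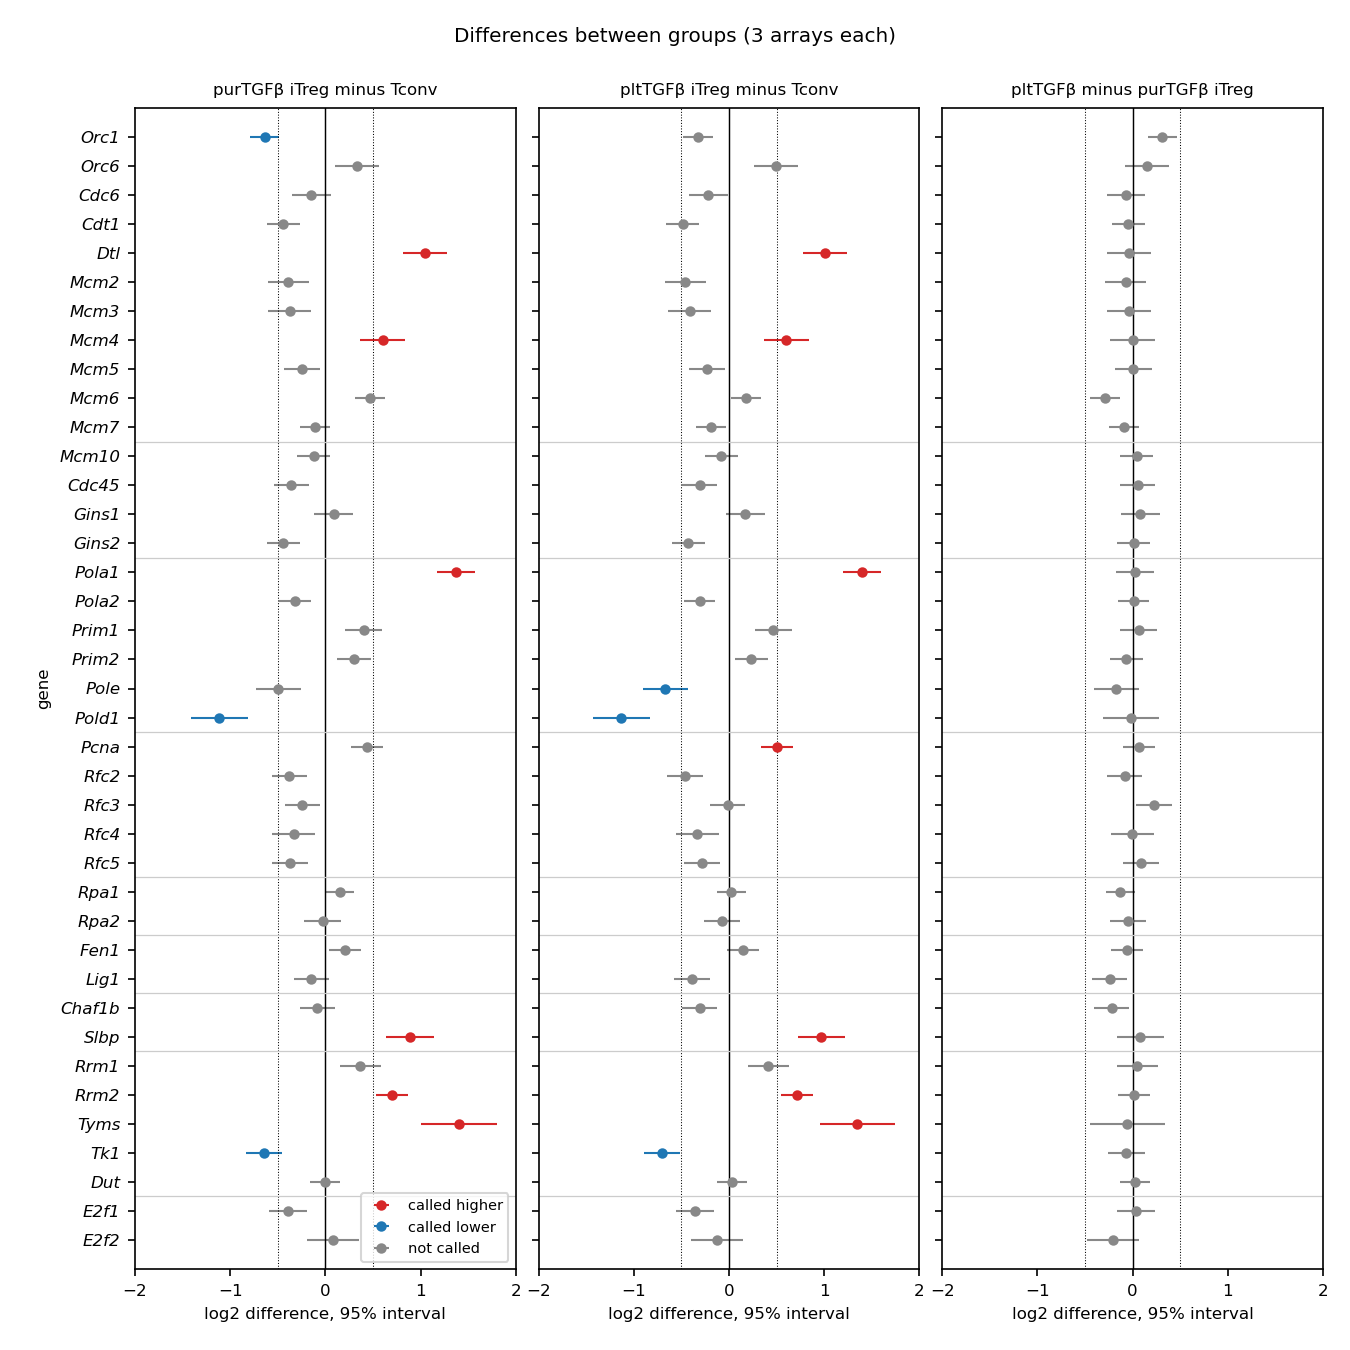
Log2 difference of each member (rows, ordered by role) with its 95% interval for purTGFβ iTreg minus Tconv, pltTGFβ iTreg minus Tconv and pltTGFβ minus purTGFβ iTreg, from the limma model over 9 arrays; dotted lines mark ±0.5. Red points were called higher and blue points lower; the right panel holds no coloured point.

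PCNA is the ring that holds polymerases on DNA, and replication factor C loads it. Pcna read 12.91, 12.85 and 12.76 on the Tconv arrays, 13.29, 13.29 and 13.26 with purified TGFβ and 13.36, 13.37 and 13.30 with platelet lysate. Its iTreg arrays were all above Tconv, by 0.44 with purified TGFβ, which was within the cutoff, and by 0.50 with lysate, which just passed it (adjusted p = 0.000539 and 0.000186). The lysate call was lost without Tconv replicate 3, lysate replicate 1 or lysate replicate 2, at differences down to 0.46. The clamp loader genes did not follow: Rfc2, Rfc3, Rfc4 and Rfc5 had -0.38 and -0.46, -0.24 and -0.02, -0.33 and -0.33 and -0.37 and -0.28, and none was called. Neither were Rpa1 and Rpa2, which coat the unwound strand (0.15 and 0.02, and -0.03 and -0.07). Another Rpa2 probe set of like level (10.08, beside 10.09) gave 0.19 and 0.23, higher by adjusted p alone (adjusted p = 0.0785 and 0.0390). Fen1, the nuclease that trims Okazaki fragments, had 0.20 and 0.15 and Lig1, the ligase that seals them, -0.15 and -0.39. By adjusted p alone, Rfc2, Rfc4 and Rfc5 were lower in both comparisons, Rfc3 was lower with purified TGFβ, and Lig1 was lower with lysate (adjusted p = 0.00293). Fen1 and Rpa1 were higher with purified TGFβ by that measure (adjusted p = 0.0477 and 0.0933).

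Slbp encodes the stem-loop binding protein that histone mRNAs need during S phase. It read 10.55, 10.26 and 10.04 on the Tconv arrays, 11.19, 11.15 and 11.17 with purified TGFβ and 11.24, 11.23 and 11.29 with platelet lysate. Tconv arrays ranged over about 0.5 log2 units yet none reached the iTreg arrays, and Slbp rose 1.85-fold and 1.96-fold (log2 differences 0.89 ± 0.11 and 0.97 ± 0.11, SE, adjusted p = 5.15e-05 and 2.70e-05). With the mean of its probe sets the differences were 0.35 and 0.44, and neither was called. Chaf1b, a subunit of the histone chaperone that follows the fork, had -0.09 and -0.31, lower with lysate by adjusted p alone (adjusted p = 0.0111).

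Of the nucleotide genes, Rrm2 and Tyms rose, Tk1 fell, and Rrm1 and Dut were not called. Rrm2, the regulatory subunit of ribonucleotide reductase and the one that limits it outside S phase, read 10.87, 10.86 and 10.73 on the Tconv arrays, 11.50, 11.58 and 11.47 with purified TGFβ and 11.55, 11.51 and 11.55 with platelet lysate. All iTreg arrays exceeded all Tconv arrays, with log2 differences from Tconv of 0.70 ± 0.08 (SE, adjusted p = 1.52e-05) with purified TGFβ and 0.72 ± 0.08 (adjusted p = 1.33e-05) with platelet lysate. Rrm1, the large subunit, had 0.37 and 0.41, higher by adjusted p alone. Tyms, thymidylate synthase, read 5.21, 5.09 and 5.54 on the Tconv arrays, 7.15, 6.40 and 6.50 with purified TGFβ and 6.72, 6.50 and 6.66 with platelet lysate. It rose 2.65-fold and 2.54-fold (adjusted p = 5.44e-05 and 8.10e-05), with purified-TGFβ replicate 1 above the other arrays of its group. With the mean of its probe sets the differences were 0.49 and 0.47 in place of 1.40 and 1.35, and neither was called. This probe set was dim in Tconv, and 1 probe set that names Tyms together with another gene was not used.

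Tk1, thymidine kinase, which recycles thymidine and is a common marker of S phase cells, read 10.50, 10.62 and 10.64 on the Tconv arrays, 9.89, 9.99 and 9.96 with purified TGFβ and 9.98, 9.93 and 9.74 with platelet lysate. The Tconv arrays were all higher, and Tk1 fell by 0.64 ± 0.09 (SE, adjusted p = 8.70e-05) with purified TGFβ and by 0.71 ± 0.09 (adjusted p = 4.27e-05) with lysate. Dut, the enzyme that keeps uracil out of DNA, had differences of 0.00 and 0.03 with 95% intervals of -0.16 to 0.16 and -0.13 to 0.19. A change as large as the cutoff lay outside both intervals, for the chosen probe set only. Another, dimmer Dut probe set (mean level 6.05) gave 0.43 ± 0.13 and 0.40 ± 0.13 (SE, adjusted p = 0.0158 and 0.0218), higher by adjusted p alone. The E2F activators themselves were not called. E2f1 had -0.39 and -0.36, lower by adjusted p alone (adjusted p = 0.00400 and 0.00695), and E2f2 had 0.08 and -0.13 (adjusted p = 0.632 and 0.442).

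**Figure D3:**
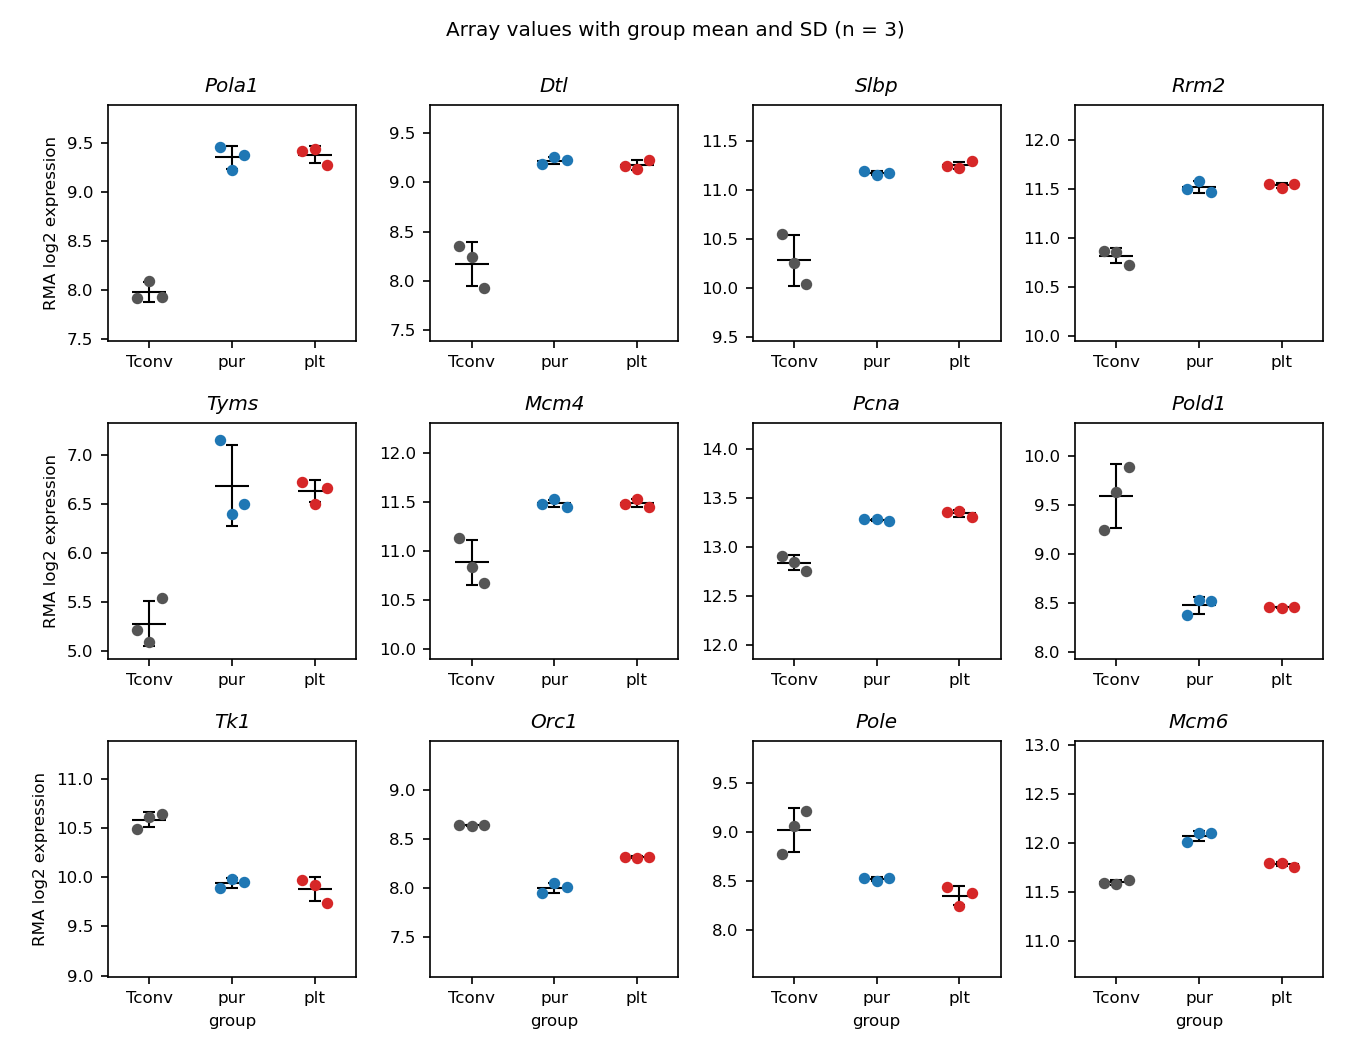
RMA log2 expression of named members on each array (points), with the group mean (bar) and SD (whisker, n = 3), for Tconv (grey), purTGFβ iTreg (blue) and pltTGFβ iTreg (red). Each panel spans the same number of log2 units but starts at its own level; Pola1 and Pold1 show wide gaps between Tconv and iTreg in opposite directions, and Orc1 and Mcm6 show a separate level in each group.

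Between the iTreg groups the replication genes were close. This comparison sets whole platelet lysate, whose TGFβ1 amount is not stated, against purified TGFβ1 at 5 ng/ml. The source of TGFβ, its dose and the other contents of the lysate therefore cannot be told apart. Both iTreg groups were male by level, with little difference in Eif2s3y and Uty (log2 differences -0.06 and 0.00). Xist was 0.32 and Kdm5d -0.32 with arrays that did not overlap (adjusted p = 0.172 and 0.120), differences of the size of those singled out below. No member was called by limma (0 of 39, against 4.11% of all genes, 1.54% higher and 2.57% lower with lysate). At an unadjusted p under 0.05 there were 5: Orc1, Mcm6, Rfc3, Lig1 and Chaf1b, or 12.8% of members against 19.0% of all genes. The 95% intervals of the members' chosen probe sets lay between -0.48 and 0.47, so a difference at the fold cutoff was outside each of them. That does not extend to all further probe sets, for example a dimmer one of Dtl at 0.43 ± 0.20 and a dimmer one of Orc1 at 0.33 ± 0.13 (SE), neither called. The median was 0.00, and the median size of a difference was 0.06 beside 0.10 over all genes, most of which were dimmer than the members. The lysate arrays of 5 members lay wholly above and those of 7 wholly below, against 13.6% and 14.6% of all genes (28.2%).

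By adjusted p alone, 2 members differed, against 9.72% of all genes (4.23% higher and 5.49% lower). Orc1, whose values are given above, was 0.31 ± 0.07 higher on the log2 scale with lysate (SE, adjusted p = 0.0244), so that the lysate arrays stood between purified TGFβ and Tconv. Without purified-TGFβ replicate 1 its adjusted p was 0.104. Mcm6, another subunit of the helicase, read 11.59, 11.58 and 11.62 on the Tconv arrays, 12.01, 12.10 and 12.10 with purified TGFβ and 11.79, 11.79 and 11.76 with platelet lysate. The purified-TGFβ arrays were highest and lysate again lay between. The difference was -0.29 ± 0.07 (SE, adjusted p = 0.0394), and against Tconv the values were 0.47 and 0.18 (adjusted p = 0.000220 and 0.0575), within the cutoff. Leaving out purified-TGFβ replicate 2 or 3, or any lysate replicate, took the Mcm6 difference past an adjusted p of 0.1, up to 0.149.

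Further probe sets of the same genes bear on how firm each call is. Beside the chosen probe sets there were 54 others, for 32 members, and none was called opposite to the chosen one in any comparison. Of the 16 that belong to members called with purified TGFβ, 8 had the same call, and of 15 with lysate, 8. Rrm2 was the same in all its probe sets, with 0.68 and 0.70 for the others with purified TGFβ, and Pold1 had -0.93. The Rrm2 probe set at 0.68 and the Pold1 one at -0.93 can cross-hybridise. The other Dtl probe sets gave 0.46 to 1.22. For Mcm4 the other probe set, which can also cross-hybridise, gave only 0.24 and 0.20 and was not called. The others of Pola1 and Slbp were not called either; their mean levels were 3.24 for Pola1 and 2.61 and 6.86 for Slbp. For Tyms, 0.56 was called and 0.16 and -0.17 were not. In the other direction, a second Prim1 probe set was called higher (0.53 and 0.63), and probe sets of Rfc2, Rfc3, Cdt1 and Mcm7 were called lower in at least 1 comparison. Those of Rfc2 and Mcm7 can cross-hybridise.

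**Figure D4:**
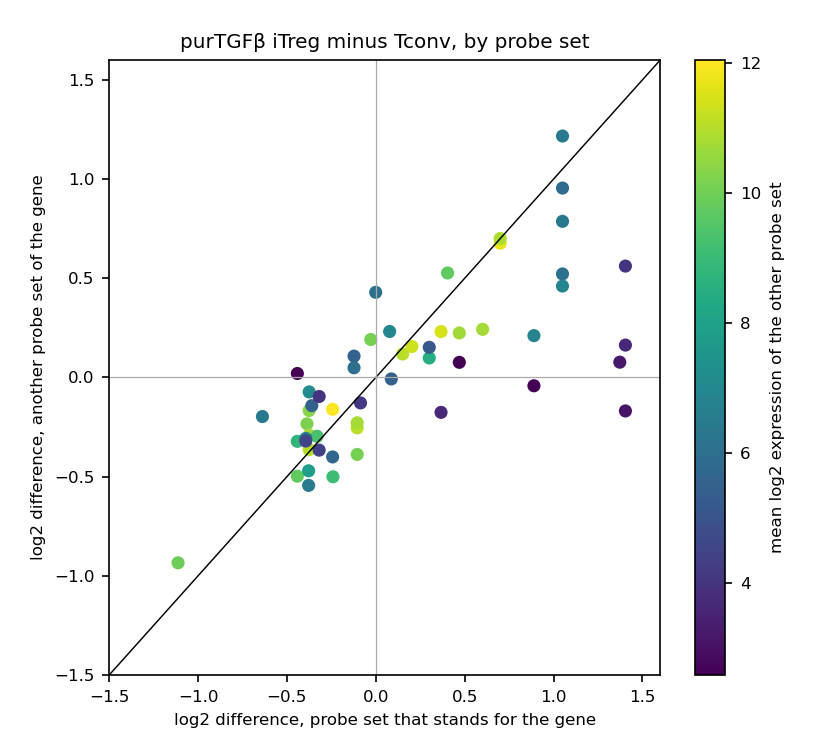
Log2 difference (purTGFβ iTreg minus Tconv) of each further probe set of a member (vertical) against that of the probe set that stands for the gene (horizontal), coloured by mean log2 expression; the line marks equality. The points farthest below the line at the right belong to probe sets of Tyms, Pola1 and Slbp with mean levels of 2.61 to 3.62.

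For these genes, as over all genes, the Tconv arrays were less alike than those of either iTreg group. Over all genes the median SD was 0.127 in Tconv, 0.0883 with purified TGFβ and 0.0908 with lysate. The median SD over members was 0.102 in Tconv, 0.0580 with purified TGFβ and 0.0501 with lysate, and Tconv had the largest SD for 28 members (71.8%, against 50.9% of all genes). Tconv replicate 1 lay on the purified-TGFβ side of the mean of the other Tconv arrays for 30 members (76.9%, against 50.8% of all genes). Pold1 and Slbp show it: Pold1 read 9.24, 9.63 and 9.89, and Slbp 10.55, 10.26 and 10.04. Without that array, 6 members rose with purified TGFβ and 9 with lysate, and 4 and 5 fell, where 14.4% and 14.1% of all genes rose and 15.8% and 15.6% fell.

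Genes of the pathway outside the members were counted in the same way, against 14.5% of all genes called higher and 14.9% lower with purified TGFβ, and 13.9% and 14.7% with lysate. Of the other fork and origin genes, 19 of 40 rose (47.5%) and 5 fell (12.5%) with purified TGFβ, and 19 rose (47.5%) and 5 fell (12.5%) with lysate. Their median log2 differences were 0.44 and 0.48, beside medians of -0.17 and -0.16 over all genes. Atad5, which unloads PCNA from DNA, rose 3.61-fold and 3.73-fold. Top1, the topoisomerase that relieves twist ahead of the fork, rose 2.40-fold and 2.65-fold. Rfc1, the large subunit of the clamp loader, rose 2.06-fold and 1.89-fold, and Orc2, of the origin recognition complex, rose 1.64-fold and 2.15-fold. Pold4, a small subunit of polymerase delta, fell by 1.23 and 1.62 on the log2 scale. Quantile normalization lowered the rises of this list to 16 and 17.

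Other enzymes of nucleotide synthesis went both ways. In that list 8 of 31 rose (25.8%) and 12 fell (38.7%) with purified TGFβ, and 9 rose (29.0%) and 9 fell (29.0%) with lysate, and the medians were -0.33 and -0.13. Mthfd2, a mitochondrial enzyme of folate metabolism, fell by 1.05 and 0.92 on the log2 scale, and Shmt2, the mitochondrial serine hydroxymethyltransferase, fell by 1.11 and 1.18. Adss, an enzyme of AMP synthesis, rose 2.21-fold and 2.25-fold, and Cmpk1, which phosphorylates CMP and UMP, rose 1.97-fold and 2.02-fold. Prps2, which makes the ribose donor of nucleotides, rose 2.42-fold and 2.20-fold.

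Of the other E2F and retinoblastoma family genes, 8 of 16 rose (50%) and 1 fell (6.25%) with purified TGFβ, and 7 rose (43.8%) and 1 fell (6.25%) with lysate. The rises held activators and repressors alike: E2f7, an E2F repressor, rose 2.46-fold and 2.79-fold, E2f3, an activator, 2.53-fold and 2.65-fold, and Rb1, the retinoblastoma gene, 2.43-fold and 2.01-fold. Lin54 and Lin9, parts of the MuvB core that represses or activates cell cycle genes, rose 3.50- and 2.59-fold with purified TGFβ and 3.16- and 2.36-fold with lysate. Under quantile normalization the falls of this list were 3 in each comparison; with purified TGFβ they were 0 with array medians centred or with the mean of probe sets, 0 without Tconv replicate 2 or 3 and 2 without Tconv replicate 1. With lysate they were 2 without Tconv replicate 1, Tconv replicate 2 or lysate replicate 2.

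Among the cyclins and kinases that start S phase, 5 of 14 rose (35.7%) and 2 fell (14.3%) with purified TGFβ, and 6 rose (42.9%) and 1 fell (7.14%) with lysate. Ccne2, cyclin E2, rose 6.22-fold and 6.05-fold, and Skp2, which marks the inhibitor p27 for destruction, 2.85-fold and 2.96-fold. Cdkn1b, which encodes p27, read 8.03, 7.87 and 7.63 on the Tconv arrays, 9.78, 9.75 and 9.71 with purified TGFβ and 8.81, 8.74 and 8.91 with platelet lysate. It stood apart in all groups: it rose 3.74-fold and 1.97-fold from Tconv and was lower with lysate than with purified TGFβ by -0.92 ± 0.10 (SE, adjusted p = 0.000246). Ccnd2, cyclin D2, read 12.19, 12.30 and 12.46 on the Tconv arrays, 11.71, 11.77 and 11.78 with purified TGFβ and 12.39, 12.35 and 12.23 with platelet lysate. Only the purified-TGFβ arrays were low, and lysate exceeded them by 0.57 ± 0.09 (SE, adjusted p = 0.00235). In this list 2 genes fell with purified TGFβ, and 1 without Tconv replicate 3 or with the mean of probe sets. Between the iTreg groups these were the only calls among 124 measured genes of the 6 lists, where 4.11% of all genes were called.

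**Figure D5:**
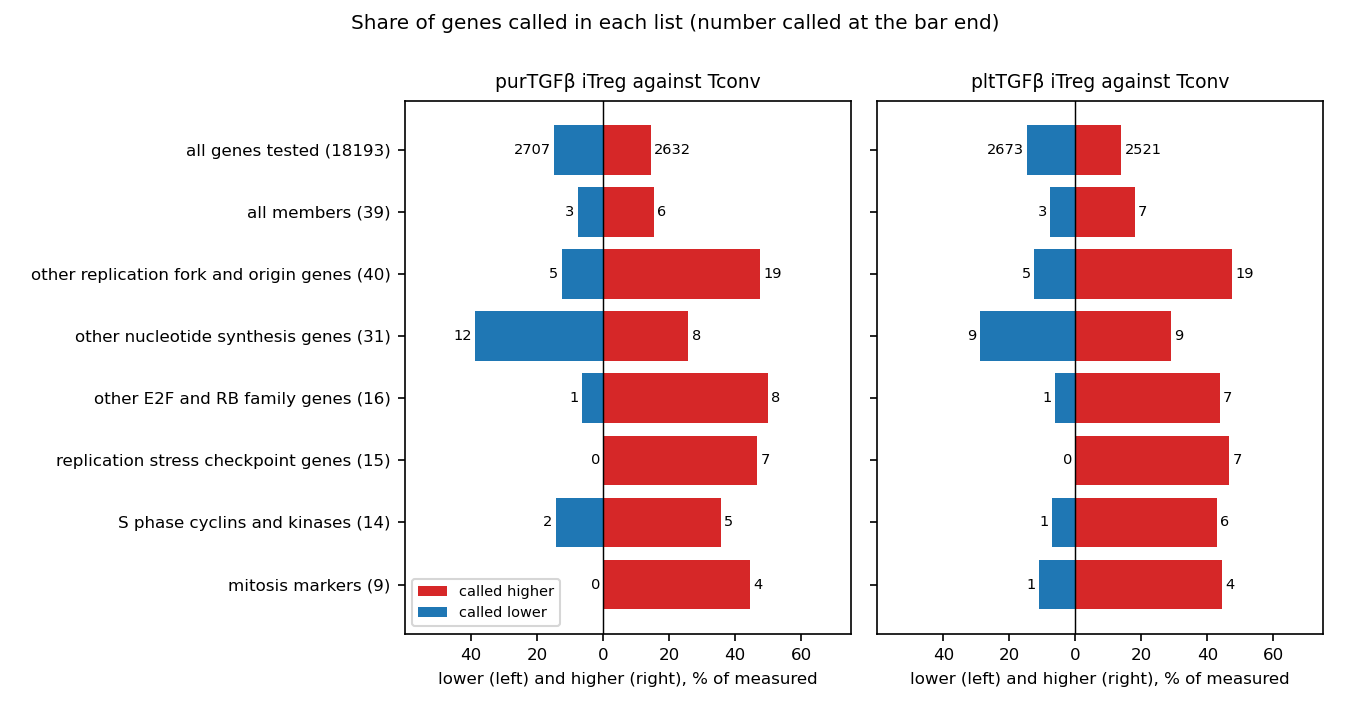
Share of measured genes called lower (blue, left) and higher (red, right) against Tconv, in percent, for all genes tested, the members and the other lists, with the number measured in brackets and the number called at each bar end. The members' bar for rises is near that of all genes and their bar for falls is shorter (7.69% against 14.9%), and the other fork and origin genes reach 47.5% higher in the purified-TGFβ panel.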

How the data were processed

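The authors deposited log2 expression values for 45101 probe sets on 9 arrays, normalized by Robust Multichip Analysis (RMA); the design text names Affymetrix Expression Console for the image data. RMA compresses values near background, so folds of dim probe sets are understated; the table holds no detection calls. The authors tested with ANOVA in Partek Genomics Suite 6.6, per the same text; Partek is also in the submitters' processing notes. The number of arrays limits the precision.

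The 64 control probe sets were left out and 45037 tested. Symbols came from the platform annotation, checked by identifier against RefSeq GRCm38.p6: 34945 probe sets had 1 symbol, 932 several and 9160 none. A limma model (3.58.1, R 4.3.3) with a mean per group was fitted over all arrays and probe sets. Tests were two-sided, with Benjamini-Hochberg adjustment over all probe sets. The code was run on simulated data with known changes in a small share of probe sets in the purified-TGFβ group. Far more probe sets differ from Tconv here, so that run does not give the error rate of these calls. Counts of genes use 1 probe set per gene. Plots used Python 3.11.15, pandas 2.3.3 and matplotlib 3.10.9. The members and lists were chosen with earlier results of these data known, so no p is given for a list. All members may be named; of the other lists, up to 4 called genes per comparison with the lowest adjusted p, beside sex-linked and marker genes. Lists: other fork and origin, other nucleotide synthesis, other E2F and retinoblastoma, S phase cyclin and kinase, checkpoint and mitosis genes. Alternatives were quantile normalization, centred medians, a filter on dim probe sets, trended robust variances, fits on the compared groups, a replicate block, means of probe sets, looser and stricter cutoffs, and the omission of single arrays; their use on the other lists and on genes that differed between iTreg groups was added after seeing the data.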

Additional observations from a re-analysis of the deposited data

Results flagged for a closer look

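These genes were singled out because the effects of purified TGFβ and platelet lysate, each against the same Tconv arrays, differed by a test of the difference itself (limma, platelet lysate minus purified TGFβ). Orc1 differed by 0.31 and Mcm6 by -0.29 on the log2 scale, past the adjusted p but within the fold cutoff. Over 16 alternatives, applied to these genes after seeing the data, the Orc1 difference ran from 0.29 to 0.34 (adjusted p = 0.0111 to 0.104) and that of Mcm6 from -0.32 to -0.27 (adjusted p = 0.000885 to 0.149). Among the other lists, Ccnd2 differed by 0.57 and Cdkn1b by -0.92; both passed adjusted p and fold cutoff under all 16 alternatives (adjusted p up to 0.0161 and 0.00214).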

How the results depend on the processing

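With no fold cutoff, 14 members were higher and 16 lower with purified TGFβ, 12 and 19 with lysate, and 1 and 1 between the iTreg groups; past a log2 difference of 1 at an adjusted p under 0.05 the counts were 3 and 1 in each Tconv comparison. Quantile normalization gave 6 falls in each Tconv comparison in place of 3, adding Gins2, Pole and E2f1 with purified TGFβ and Mcm2, Rfc2 and E2f1 with lysate; centred medians gave 7 and 9 rises. Leaving out each array in turn gave 5 to 6 rises and 3 to 4 falls with purified TGFβ, 5 to 9 and 3 to 5 with lysate, and 0 between the iTreg groups; the falls with lysate numbered 5 without Tconv replicate 1. Their medians ran from -0.15 to -0.09, -0.21 to -0.06 and -0.02 to 0.02. The background moved too: centred medians took the share of all genes' calls that were rises from 49.3% and 48.5% to 56.5% and 55.3%. Quantile normalization took it to 38.6% and 38.4%. Shares of all genes are not given for the stricter cutoff, nor for omitted arrays other than Tconv replicate 1. Those counts therefore do not set the members apart from other genes. Of 19 member calls, 11 held under all 16 alternatives that kept the call rule, and 8 were lost under at least 1 (Orc1 with purified TGFβ, Pcna with lysate, and Mcm4, Slbp and Tyms in both comparisons; Slbp and Tyms only with the mean of probe sets); the cause was not tested. No member call reversed. For Pold1, Tk1 and Pole the mean of probe sets could not test the call. It left out _x_at probe sets, and these genes had no other beside the chosen one. With the replicate number as a block, the counts were 6 and 3, 7 and 3, and 0 and 0, as without it. Correlations of the deviations of same-numbered arrays were -0.12 to 0.26, and 3 of 9 arrays correlated best with their own number, so the numbers were not taken to pair the samples. In the other lists, checked after seeing the data, counts of rises stayed within 1.5 times under both other scalings.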

Other observations

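Genes that guard the fork were also counted. Of the replication stress checkpoint genes, 7 of 15 rose and 0 fell in each comparison with Tconv (46.7% in each, where 14.5% and 13.9% of all genes rose and 14.9% and 14.7% fell; medians 0.42 and 0.39). Falls numbered 3 and 2 under quantile normalization, 1 with purified TGFβ without Tconv replicate 3, and 1 with lysate without Tconv replicate 1, lysate replicate 1 or lysate replicate 2. Chek1, the kinase that slows S phase when forks stall, rose 2.34-fold and 2.35-fold. Rad17, which loads a checkpoint clamp, rose 2.00-fold and 2.26-fold, and Etaa1, an activator of the kinase ATR, 2.61-fold and 2.72-fold. Atr itself rose 2.43-fold and 2.49-fold, and Brca1, a repair gene, 2.02-fold and 1.69-fold.

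Mitosis markers, which follow replication, had 4 rises and 0 falls among 9 with purified TGFβ and 4 rises and 1 fall with lysate (44.4% rises in each, and 11.1% falls with lysate), against the same shares of all genes. Kif11, a spindle motor, rose 4.43-fold and 4.91-fold, Bub1, a spindle checkpoint kinase, 2.55-fold and 2.53-fold, and Top2a, which untangles chromosomes, 1.69-fold and 1.45-fold. Falls numbered 2 with lysate under quantile normalization, 0 without Tconv replicate 3, and 1 with purified TGFβ without Tconv replicate 1. The sex difference between Tconv and iTreg arrays cannot be told apart from the group here either.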
